A study of Rattus norvegicus with 61 samples.

Results

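The nuclear-encoded genes of the mitochondrial respiratory chain were examined in striatum and cerebellum of young rats exposed to a hydroxylated metabolite of a polychlorinated biphenyl (PCB). Members were taken by gene symbol: subunits named Ndufa, Ndufb, Ndufc, Ndufs or Ndufv with a number (complex I), Sdha to Sdhd (complex II), Uqcr genes and Cyc1 (complex III), Cox4 to Cox8 genes (complex IV) and Atp5 genes (complex V), without pseudogenes. The rule took 102 symbols of the annotation, and 78 of them were in both count tables: 33 of complex I, 4 of complex II, 9 of complex III, 15 of complex IV and 17 of complex V. The other 24 symbols are not analysed here. The tables held 14231 genes for striatum and 14129 for cerebellum, of which 13889 were in both.

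The rats were male adolescent Sprague-Dawley. Each carried a polymer implant under the skin for 28 days from postnatal day 28, which held 4-OH-PCB52 in the exposed groups. The loading was 1% in the low, 5% in the medium and 10% in the high group, and the sham rats carried an implant with 0%. The striatum had 8 sham, 6 low, 8 medium and 8 high libraries, and the cerebellum had 7, 8, 8 and 8, each from 1 rat, and 29 animals had a library of both regions. Within a region the p-values below thus measure the spread between rats. Tests between regions treat the libraries of the same rat as independent, except where the animal is named as a replicate block. Libraries are named below by exposure group and animal number. Rats came in 4 cohorts 3 weeks apart, and the labels do not say which rat was in which.

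The respiratory chain passes electrons from NADH (through complex I) and from succinate (through complex II) by way of complexes III and IV to oxygen, and complex V uses the resulting proton gradient to make ATP. Each complex except complex II also holds subunits encoded by mitochondrial DNA, which are not among the members. In complexes I, III, IV and V a catalytic core is surrounded by small accessory subunits that serve assembly, stability and regulation. Neurons depend on this chain for most of their ATP. In what follows, 19 members are called core: the nuclear-encoded core subunits of complex I (such as Ndufs1, Ndufs3 and Ndufv1), the catalytic subunits Sdha and Sdhb, the electron carriers Cyc1 and Uqcrfs1, and the F1 and rotor ring subunits of ATP synthase (Atp5f1a to Atp5f1e and Atp5mc1 to Atp5mc3). No member of complex IV is among them, because its catalytic subunits are mitochondrial-encoded. This split was chosen after values had been seen and is used for description only.

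Libraries held 5850199 to 10944066 counted reads in striatum and 5420458 to 10994625 in cerebellum. Levels are given as CPM (reads of a gene relative to all counted reads of its library), with library sizes adjusted by the TMM method. By a rule set on other genes, 8 striatal and 10 cerebellar libraries stood apart: their mean over cytosolic ribosomal protein genes, or over neuron markers of their own region, lay more than 1 log2 unit from the region's median. Region markers went against the label in 4 of them. Striatal libraries sham 17, low 20 and high 13 had 8.36, 23.4 and 29.97 CPM of the dopamine receptor Drd1, against 217 to 518 CPM in the striatal libraries not standing apart. The cerebellar library low 22 had 1.71 CPM of the granule cell receptor subunit Gabra6, against 724 to 995 CPM. Ttr, a choroid plexus marker, was at 11930 CPM in striatal sham 17 and at 979 CPM in striatal sham 48, which did not stand apart. The striatal median was 20.9 CPM. Cerebellar high 59 held 8607 CPM of Ttr, against a cerebellar median of 4.05 CPM. Results are given with and without the libraries that stood apart. Since the ribosomal mean moved with the members, leaving those libraries out also removed most libraries with high members.

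Together the members took 1.20% to 2.94% of the reads of a striatal library and 1.11% to 7.17% of a cerebellar one. The mean of the 76 members tested in every fit ranged over libraries from 6.74 to 8.32 log2 CPM in striatum and from 6.50 to 10.27 in cerebellum. Most libraries lay close together and a few lay far above. In cerebellum the high group had 5 libraries at 6.56 to 6.69 and 3 far above them, high 59 at 9.17, high 28 at 9.40 and high 43 at 10.27. Sham 48 at 8.71, medium 24 at 8.77 and low 22 at 8.03 were the highest of the other groups. In striatum the highest libraries were high 28 at 8.32, medium 41 at 8.10, medium 8 at 7.79 and sham 49 at 7.77. The exposure groups overlapped in both regions.

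**Figure D1:**
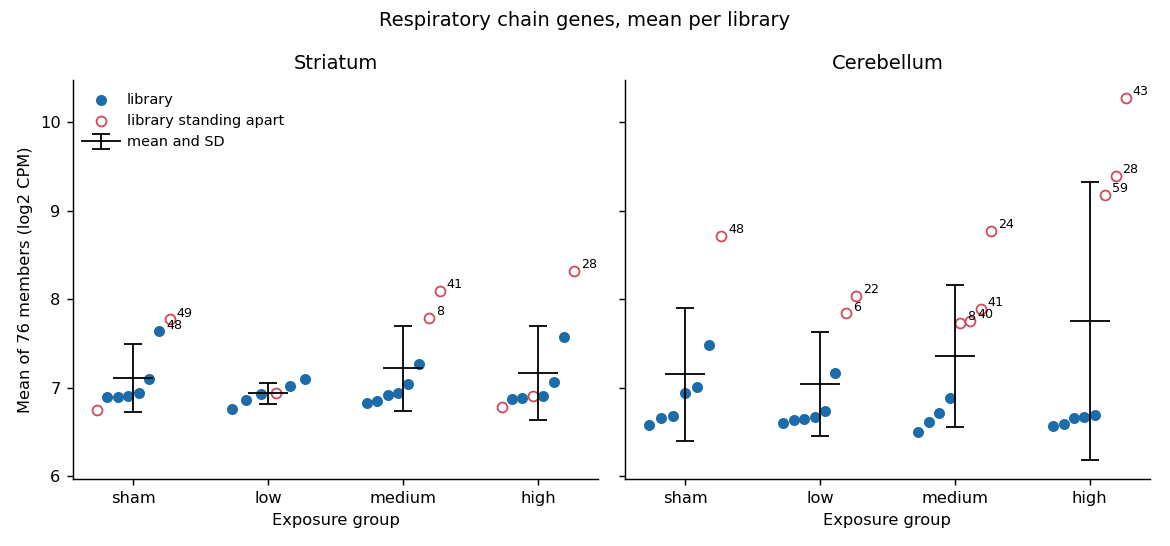
Each point is 1 library, placed by the mean of 76 respiratory chain genes in log2 CPM (y axis) and its exposure group (x axis), with open points for libraries that stood apart on other genes, bars for mean and SD, and animal numbers beside the highest points. In the cerebellar high group 5 libraries lie between 6.56 and 6.69 and the other 3 lie above 9.

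The means of the 5 complexes were high in the same libraries. In high 43 the complex means were 10.04 for complex I, 9.53 for II, 10.13 for III, 10.35 for IV and 10.90 for V, and in sham 32, the lowest sham library, they were 6.30, 7.17, 6.59, 6.24 and 7.23. The standard deviation (SD) of a member over the 31 cerebellar libraries had a median of 1.13 log2 units in complex I, 0.83 in II, 0.90 in III, 1.17 in IV and 1.08 in V. In striatum the medians were 0.46, 0.34, 0.45, 0.52 and 0.46. Over all genes tested the median SD was 0.61 in cerebellum and 0.37 in striatum, and over ribosomal protein genes it was 1.29 and 0.55.

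Single members differed widely in spread. Uqcr10, a small accessory subunit of complex III, had the largest SD in cerebellum among the 76 members tested in every fit, 1.49 log2 units. Cox6a2, with few reads and not among the 76, had one of 1.59. The sham libraries of Uqcr10 ranged from 14.5 to 98.0 CPM with a median of 21.8, and its high libraries from 15.3 to 992 CPM with a median of 18.8. The median was thus no higher in the high group, and the upper end came from high 43 at 992 CPM, high 28 at 250 CPM and high 59 at 237 CPM. Sdha, the flavoprotein that oxidises succinate in complex II, had the smallest SD in cerebellum with every library, 0.22. Its sham libraries ranged from 284 to 399 CPM with a median of 301, and its high libraries from 302 to 417 CPM with a median of 331. High 43 had 390 CPM of Sdha, within the range of the other libraries. Uqcrc2, a core protein of complex III without a redox centre, had an SD of 0.26, and Atp5f1a, the alpha subunit of the ATP synthase head, 0.34. The same members had SDs of 0.16 (Sdha), 0.16 (Uqcrc2) and 0.23 (Atp5f1a) in striatum. In the libraries not standing apart Ndufs1 and Uqcrc2 had smaller SDs than Sdha, with 0.077 and 0.101 against 0.126 in cerebellum and 0.088 and 0.077 against 0.117 in striatum. Among the core members the median SD was 0.83 in cerebellum and 0.37 in striatum, and among the other members it was 1.16 and 0.49.

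Ndufs1, the largest subunit of complex I and carrier of iron-sulfur clusters, went the other way. Across the 31 cerebellar libraries its log2 level had a Pearson correlation of -0.757 with the mean of the other members, while 72 of the 76 members had one above 0.9. These values describe libraries of shared depth and scaling. In sham, Ndufs1 lay at 211 to 240 CPM in 6 libraries and at 141 CPM in sham 48. In the high group the 5 libraries with low member means held 198 to 221 CPM, and high 59, high 28 and high 43 held 139, 115 and 109 CPM. In the 21 cerebellar libraries not standing apart the correlation was 0.597 and the SD of Ndufs1 was 0.08, so the inverse relation rested on the libraries standing apart.

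**Figure D2:**
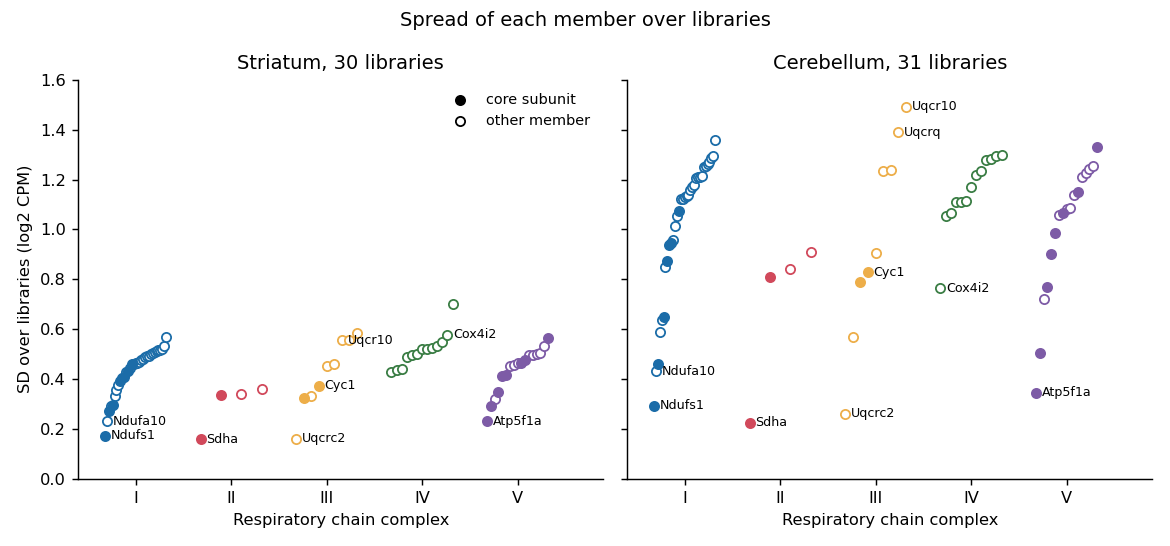
Each point is 1 of the 76 members tested in every fit, with its SD over libraries in log2 CPM (y axis) by complex (x axis), filled for core and open for other members. Sdha, Uqcrc2, Ndufs1 and Atp5f1a lie at the bottom of their complexes in both regions, and Uqcr10 has the highest value of these 76 in cerebellum.

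Promoters were read for the members with an entry in RefSeq's table of promoters (build GRCr8, 250 bases before to 50 after the gene start), which matched 68 of the 78. Nuclear respiratory chain genes are known targets of nuclear respiratory factor 1 (NRF1), of GABP (an ETS factor also called NRF2) and of YY1. Short forms of their motifs were searched on both strands over the 300 bases: CCGGAAG for ETS factors, GCGCANGCG for NRF1 and AAGATGG for YY1. The ETS motif stood in 21 of the 68 promoters (30.9%), against 15.1% of the 11570 promoters of genes in the count tables and 9.22% of all 27457 promoters. The NRF1 motif stood in 17 (25.0%), against 11.2% and 6.26%, and the YY1 motif in 16 (23.5%), against 7.71% and 7.3%. A match is a description and not a shown binding site.

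The 100 bases just before the start are given for 5 members as examples, with motif matches in capitals and the rest in lower case. With every library Sdha had the smallest SD in cerebellum and Uqcr10 the largest of the 76 members, Ndufs1 was the one that ran against the rest there, and Cox8a and Uqcrq were lower in cerebellum than in striatum in sham without the libraries standing apart.

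Sdha (GRCr8 chr1:30764453-30764552, plus strand): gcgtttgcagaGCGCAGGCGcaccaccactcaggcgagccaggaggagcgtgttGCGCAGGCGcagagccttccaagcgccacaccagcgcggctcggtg
Uqcr10 (GRCr8 chr14:83791915-83792014, minus strand): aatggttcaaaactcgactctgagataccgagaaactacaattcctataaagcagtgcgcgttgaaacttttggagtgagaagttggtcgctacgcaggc
Ndufs1 (GRCr8 chr9:72073606-72073705, minus strand): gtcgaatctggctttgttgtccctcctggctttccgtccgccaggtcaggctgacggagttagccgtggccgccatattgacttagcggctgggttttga
Cox8a (GRCr8 chr1:213833624-213833723, minus strand): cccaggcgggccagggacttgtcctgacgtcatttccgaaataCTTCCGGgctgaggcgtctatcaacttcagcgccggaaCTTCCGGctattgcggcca
Uqcrq (GRCr8 chr10:38089979-38090078, minus strand): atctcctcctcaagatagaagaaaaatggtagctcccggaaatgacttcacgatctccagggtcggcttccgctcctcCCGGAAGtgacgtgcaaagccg

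Sdha held 2 matches to the NRF1 motif in this stretch, Cox8a 2 to the ETS motif and Uqcrq 1 to the ETS motif. Uqcr10 and Ndufs1 held no match within these 100 bases, and Ndufs1 had an ETS match elsewhere in its 300 bases. Other members called between the regions without the libraries standing apart were read in the same way. Atp5f1a, higher in cerebellum, held an ETS match in its 100 bases. Uqcrfs1, Ndufa9 and Ndufc2, also higher, and Atp5if1, lower in cerebellum, held no match there.

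In the libraries not standing apart the spread was small. The median SD over members was 0.25 in the 22 striatal and 0.27 in the 21 cerebellar libraries.

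Some animals had high member means in both regions. Of the 29 animals with both regions, 7 were among the 10 highest for member mean in both, and 3 were among the 5 highest in both. Animal 28 had 8.32 in striatum and 9.40 in cerebellum, animal 41 had 8.10 and 7.89, animal 59 had 7.57 and 9.17, and animal 48 had 7.63 and 8.71. Animal 43, the highest in cerebellum at 10.27, had 7.07 in striatum. The ribosomal protein genes were high in the same libraries, with 11.23 log2 CPM in the cerebellum of animal 43, 10.35 in that of animal 28 and 6.73 to 6.86 in the 5 other high libraries. Whether the ribosomal genes and the members share a source of this spread was not tested. In bulk tissue, fewer cells of a type and less RNA per cell cannot be told apart.

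**Figure D3:**
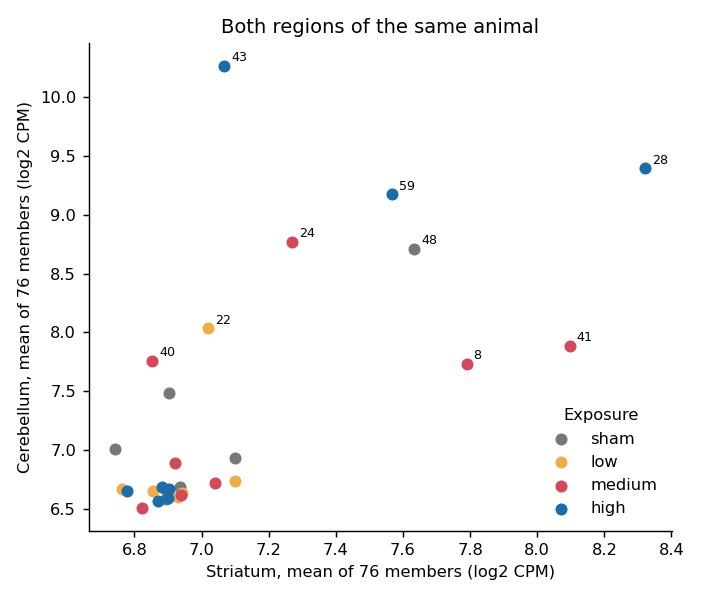
Each point is 1 of the 29 animals with both regions, with the mean of 76 members in striatum (x axis) and cerebellum (y axis) in log2 CPM, coloured by exposure group. Animals 28, 59, 48, 24, 41, 8 and 43 are among the 10 highest on both axes, with animal 43 first in cerebellum (10.27) and at rank 9 in striatum (7.07).

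No member passed an adjusted p of 0.05 against sham in either region at any loading (edgeR's quasi-likelihood test, Benjamini-Hochberg adjustment over all genes tested). Of all genes, 0% were called in each of these 6 comparisons. The test covered 76 members in striatum, where Cox6a2 and Cox8b had too few reads, and 77 in cerebellum, where Cox8b did. With no test on the list, the members are described by the sign and median of their log2 fold changes.

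In striatum the fitted fold changes of members were mostly below 0 at low loading and mostly slightly above 0 at medium and high loading. The typical library did not follow this order. The group medians of the member mean were 6.92 log2 CPM in sham, 6.935 in low, 6.989 in medium and 6.902 in high, and sham 48 and sham 49 lay at 7.63 and 7.77. At low loading 75 of 76 members were lower, with a median log2 fold change of -0.24 against 0.00 over all genes. The range over members ran from -0.37 to 0.26. At medium loading 74 of 76 were higher, with a median of 0.12, and at high loading 67 of 76 were higher, with a median of 0.10. The 0 members with an unadjusted p under 0.05 in these 3 comparisons compare with 3.84%, 3.68% and 1.16% of all genes. Atp5f1a had the smallest p at low loading. Its sham libraries ranged from 741 to 1021 CPM with a median of 817, and its low libraries from 640 to 815 CPM with a median of 722, a log2 fold change of -0.23 ± 0.13 (SE; adjusted p = 0.905, edgeR). At medium loading it was Uqcr10, at 16.04 to 47.0 CPM in sham (median 22.9) and 18.7 to 60.8 CPM in medium (median 30.1), a log2 fold change of 0.39 ± 0.29 (SE; adjusted p = 1.00, edgeR). At high loading it was Cox4i2, the lung and hypoxia isoform of complex IV subunit 4, at 1.47 to 5.93 CPM in sham (median 3.05) and 2.06 to 6.57 CPM in high (median 4.79), a log2 fold change of 0.42 ± 0.30 (SE; adjusted p = 1.00, edgeR). The groups overlapped for each of these genes.

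The medium and high directions in striatum turned when single libraries, or those standing apart, were left out, and with some other settings. Without the libraries standing apart the medians were -0.17 at low, -0.10 at medium and -0.02 at high loading. Without medium 41 the medium median was -0.03, and without high 28 the high median was -0.15. The low median was -0.12 without sham 49 and -0.16 without sham 48. With sample quality weights (limma-voom) the low, medium and high medians were -0.06, 0.007 and -0.03, and with the mean of ribosomal protein genes as a covariate they were -0.09, -0.02 and -0.055. That mean had a Pearson correlation of 0.969 with the member mean over the striatal libraries. As a covariate it takes up a shift they share, so these medians cannot show whether the members shifted. Ribosomal protein genes had medians of -0.21, 0.19 and 0.20 in the same comparisons with every library.

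Markers of glia and vessels also lay higher in the striatal low group. The means of the 15 astrocyte markers ranged from 8.36 to 8.69 log2 CPM in the low libraries (mean 8.51) and from 7.53 to 8.45 in sham (mean 8.08), so the groups overlapped. The endothelial markers had group means of 5.77 in low and 5.38 in sham, and the mural cell markers 4.66 and 4.23. With every library 15 of 15 astrocyte, 16 of 16 oligodendrocyte and myelin, 14 of 14 endothelial, 13 of 14 mural cell and 13 of 15 microglial markers were higher at low loading, and 19 of 24 markers of striatal projection neurons were lower. At medium and high loading the astrocyte markers were higher in 14 and 15 of 15, the endothelial in 14 and 14 of 14 and the mural cell markers in 14 and 14 of 14. Other lists differed there from the low group. The group medians of oligodendrocyte and myelin markers were 8.356 in medium and 8.45 in high, against 8.463 in sham. Those of striatal neuron markers were 8.793 and 8.687, against 8.604, and those of microglial markers 5.435 and 5.199, against 5.171. In these 3 comparisons 0 markers of these lists passed the adjusted threshold. Their part in the members' values was not tested.

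In cerebellum the fitted fold changes of members were mostly below 0 at low, slightly above 0 at medium and well above 0 at high loading. The group medians of the member mean were 6.934 log2 CPM in sham, 6.702 in low, 7.308 in medium and 6.678 in high. In the high group, high 28, high 43 and high 59 lay at 9.40, 10.27 and 9.17, and the 5 others at 6.56 to 6.69, below the sham median. At low loading 70 of 77 members were lower, with a median log2 fold change of -0.19. At medium loading 75 of 77 were higher, with a median of 0.19. At high loading 76 of 77 were higher, with a median of 1.49 against -0.03 over all genes, and Ndufs1 alone was lower at -0.21 ± 0.14 (SE; adjusted p = 0.577, edgeR). At low and medium loading 0 members had an unadjusted p under 0.05, against 1.54% and 1.44% of all genes, and at high loading 58 of 77 did, against 11.6% of all genes. Most members rose and fell together over libraries, so these counts are not counts of independent results. The medians by complex at high loading were 1.54 for complex I, 0.96 for II, 1.21 for III, 1.56 for IV and 1.35 for V. The 19 core members had a median of 0.89 and the other 58 members one of 1.56. Ribosomal protein genes had medians of -0.45 at low, 0.09 at medium and 1.79 at high loading.

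The member with the smallest p of complex III was Uqcr10, with a log2 fold change of 2.63 ± 0.85 (SE; adjusted p = 0.418, edgeR). In complex I it was Ndufa5, an accessory subunit of the matrix arm. Ndufa5 ranged from 61.3 to 216 CPM in sham (median 66.7) and from 62.5 to 874 CPM in high (median 69.8), a log2 fold change of 1.44 ± 0.53 (SE; adjusted p = 0.418, edgeR). In complex V it was Atp5mk, a small subunit of the membrane part of ATP synthase, at 59.7 to 340 CPM in sham (median 81.5) and 54.7 to 1628 CPM in high (median 66.2), a log2 fold change of 1.81 ± 0.69. In complex IV it was Cox7a2, the isoform of subunit 7a found in most tissues, at 93.4 to 539 CPM in sham (median 131) and 90.3 to 2299 CPM in high (median 104), a log2 fold change of 1.74 ± 0.67. In complex II it was Sdhb, the iron-sulfur subunit, at 118 to 374 CPM in sham (median 140) and 117 to 910 CPM in high (median 130), a log2 fold change of 0.97 ± 0.45. For Atp5mk, Cox7a2, Sdhb and Uqcr10 the median of the high libraries lay below that of sham, while high 28, high 43 and high 59 lay above every sham library. Sdha, in the same complex as Sdhb, had a log2 fold change of 0.13 ± 0.15 (SE; adjusted p = 0.801, edgeR).

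At medium loading in cerebellum Sdha had the smallest p, with 287 to 460 CPM in the medium libraries and a log2 fold change of 0.21 ± 0.15 (SE; adjusted p = 0.999, edgeR).

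Without the libraries standing apart, which were 3 of the 8 high and 1 of the 7 sham libraries, the high comparison turned. There 75 of 76 members were lower, with a median of -0.29, and the complex medians ran from -0.16 (II) to -0.34 (IV). The groups overlapped there, with member means of 6.58 to 7.48 in the 6 sham and 6.56 to 6.69 in the 5 high libraries. The highest was sham 1, at 7.48, whose ribosomal mean of 7.77 log2 CPM compares with a region median of 6.88. Leaving out single libraries was not done in this setting. The number with an unadjusted p under 0.05 was 29 of 76, against 8.13% of all genes, and 0 passed the adjusted threshold. Ribosomal protein genes had a median of -0.30 there. With the libraries standing apart kept, the median of the members was 0.76 without high 43 and 1.996 without sham 48, and stayed above 0 with each library left out in turn. With sample quality weights it was -0.11, and with the ribosomal mean as a covariate it was -0.04. With these settings the low median was -0.07 and 0.06, and the medium one 0.0066 and 0.07. The ribosomal mean had a Pearson correlation of 0.997 with the member mean over the cerebellar libraries. As a covariate it takes up a shift they share, so its medians cannot show whether the members shifted. Without the libraries standing apart the low and medium medians were -0.14 and -0.24. Without sham 48 the low median was 0.28 and the medium one 0.72, without low 22 the low median was -0.44, and without medium 24 the medium median was -0.11.

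Cell type markers differed in the same libraries. The 14 granule cell markers had means of 7.39 log2 CPM in high 43, 7.81 in high 28 and 7.68 in high 59, against 8.99 to 9.07 in the 5 other high libraries and 8.77 to 9.10 in the 6 sham libraries not standing apart. Single granule cell markers differed in this. In those 3 libraries Gabra6 was at 476.5, 596.6 and 534.1 CPM (region median 820) and Fat2 at 253.5, 193.9 and 138 CPM (region median 1650). In medium 24 and medium 41 Gabra6 was at 834 and 927 CPM, while Fat2 was at 196 and 295 CPM. The 9 Purkinje cell markers had means of 10.58, 9.46 and 9.56 in high 43, high 28 and high 59, against 8.60 to 8.80 in the 5 others. The 15 microglial markers had means of 4.35, 4.40 and 4.32, against 3.27 to 3.59. The 9 choroid plexus markers, of which 7 were higher in the high group, had a median log2 fold change of 1.01, and of 0.86 over 8 markers without the libraries standing apart. The 14 endothelial markers had means of 3.18 in high 43, 3.82 in high 28 and 4.04 in high 59, against 4.67 to 4.81 in the 5 others. The 15 astrocyte markers had means of 6.73, 7.21 and 7.32, against 7.67 to 7.84, and the 14 mural cell markers 2.75, 3.45 and 3.60, against 3.68 to 4.10. In the high group 13 of 14 granule, 2 of 9 Purkinje, 5 of 15 microglial, 10 of 14 endothelial, 9 of 15 astrocyte, 10 of 14 mural cell and 4 of 16 oligodendrocyte and myelin markers were lower. Of these 8 lists 0 markers passed the adjusted threshold. Their part in the members' values was not tested.

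**Figure D4:**
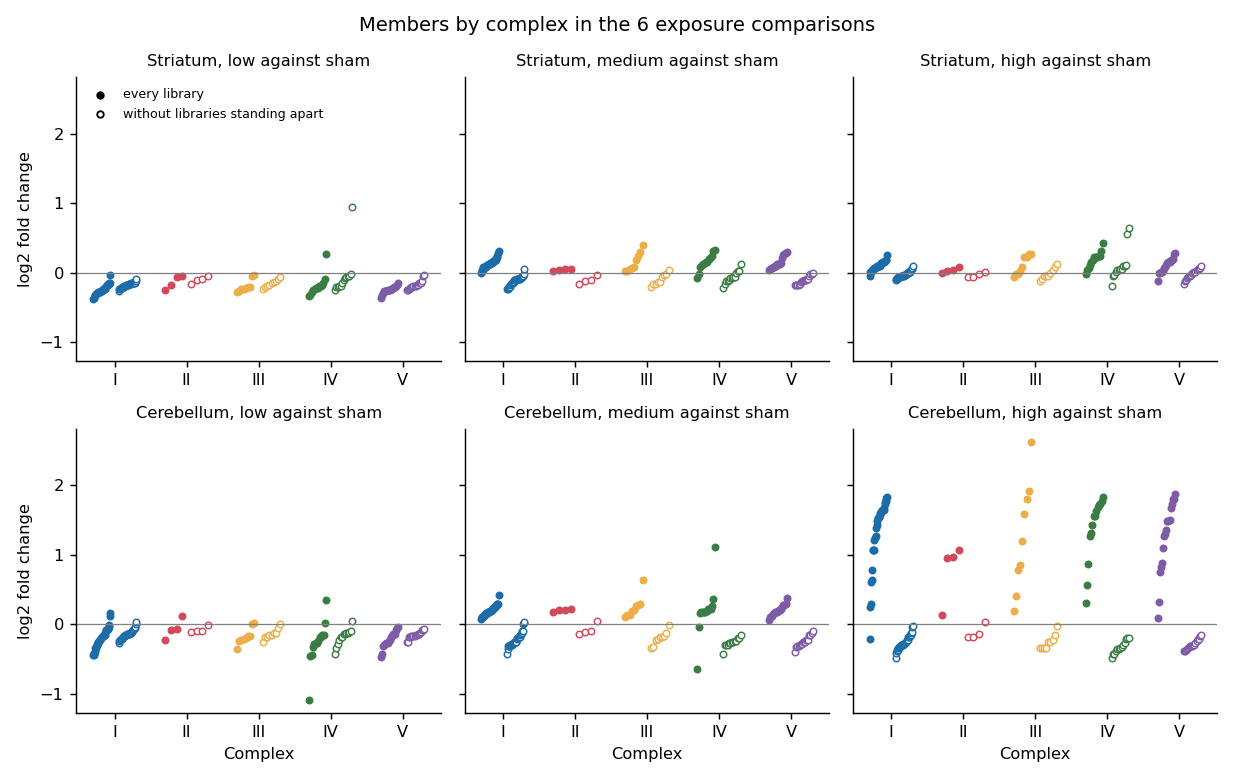
Each point is 1 member, with its log2 fold change against sham (y axis) by complex (x axis) in the 6 exposure comparisons, filled with every library and open without the libraries standing apart. In cerebellum at high loading the filled points have a median of 1.49 and the open points one of -0.29.

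The trend with loading, fitted per percent of 4-OH-PCB52 in the implant, called 0 members and 0% of all genes in either region. In cerebellum 66 of 77 members had an unadjusted p under 0.05, all with a positive slope, against 20.6% of all genes, with a smallest adjusted p of 0.0759 (edgeR). In striatum 0 of 76 did, against 0.97%. DESeq2 called 55 of 77 members in cerebellum, against 7.49% of all genes. Without the libraries standing apart the cerebellar median slope was -0.03 log2 per percent, with 1 of 76 members above 0, where it had been 0.16 with every library. The trend uses the same libraries as the 3 comparisons with sham, so it is no separate evidence.

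The difference between regions in the response to each loading was tested as an interaction. No member was called at low, medium or high loading, where 0%, 0% and 0.00792% of all genes were (edgeR). At high loading 44 of 77 members had an unadjusted p under 0.05, against 8.06% of all genes, with a median difference of 1.32 log2 units, larger in cerebellum. At low and medium loading 0 members did, against 2.32% and 3.63% of all genes. With the animal as a replicate block the high median difference was 0.45 and 0 members had an unadjusted p under 0.05, and without the libraries standing apart the median was -0.30.

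Sham rats were used to compare the regions themselves, on 1 scale over both tables. With every library 71 of 77 members were higher in cerebellum, with a median log2 fold change of 0.25 against 0.09 over all genes. Atp5f1a alone was called, and it was higher in cerebellum, where 22.1% of all genes were called higher and 21% lower. It ranged from 732 to 1023 CPM in striatum (median 800) and from 895 to 1643 CPM in cerebellum (median 1001), a log2 fold change of 0.44 ± 0.16 (SE; adjusted p = 0.0246, edgeR). It was higher in cerebellum in 7 of the 7 sham animals with both regions. The call was lost without cerebellar sham 1, where no member was called, without cerebellar sham 48, where the log2 fold change was 0.29 and Ndufs1 was called in its place at 0.28, and in a fit of the sham libraries alone, where no member was called. With the animal as a replicate block Cyc1 was called beside it, with 21.1% of all genes called higher and 22.8% lower.

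Without the libraries standing apart the region difference varied in direction from member to member. Members were called less often than all genes, in both directions. In the 6 striatal and 6 cerebellar sham libraries left, 24 of 76 members were called, 6 higher and 18 lower in cerebellum, while 35.1% of all genes were called higher and 32.2% lower. The median over members was -0.11, against 0.02 over all genes. The 6 higher members were Atp5f1a, the complex III carriers Cyc1 (cytochrome c1) and Uqcrfs1 (the Rieske iron-sulfur protein), and Ndufs1, Ndufa9 and Ndufc2 of complex I. The 18 lower ones were Uqcr11 and Uqcrq of complex III, Cox5b, Cox6a1, Cox7c and Cox8a of complex IV, Atp5me, Atp5mk, Atp5pf, Atp5f1e and the inhibitor Atp5if1 of complex V, and Ndufa1, Ndufa8, Ndufb3, Ndufb7, Ndufb9, Ndufs3 and Ndufs5 of complex I. Of the 19 core members 4 were called higher and 2 lower (Ndufs3 and Atp5f1e), and of the 57 others 2 were called higher and 16 lower. No member of complex II was called in this fit. There the ribosomal protein genes were lower in cerebellum, with a median of -0.27 and 28 of 75 called lower. So were markers of glia: 16 of 16 oligodendrocyte and myelin markers and 14 of 15 microglial markers were called lower in cerebellum, while 14 of 14 granule cell markers were called higher. The part of cell makeup in the members' differences was not tested.

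Ndufs1 separated the regions without overlap in these libraries. It ranged from 171 to 190 CPM in striatum (median 175) and from 211 to 241 CPM in cerebellum (median 217), a log2 fold change of 0.31 ± 0.06 (SE; adjusted p = 6.71e-06, edgeR), and it was higher in cerebellum in 5 of 5 animals. With every library the fold change was 0.24 ± 0.12 and the test was not passed (adjusted p = 0.110, edgeR), and sham 48 had 143 CPM in cerebellum. Cyc1 ranged from 151 to 297 CPM in striatum and from 198 to 343 CPM in cerebellum, a log2 fold change of 0.38 ± 0.13 (SE; adjusted p = 0.00971, edgeR). Uqcrfs1 ranged from 111 to 199 CPM and from 139 to 262 CPM, a log2 fold change of 0.35 ± 0.12. The ranges of Cyc1 and Uqcrfs1 overlapped between the regions, while both genes were higher in cerebellum in 5 of 5 animals.

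Uqcr11, a small subunit of complex III, had the lowest fold change. It ranged from 259 to 429 CPM in striatum (median 287) and from 125 to 279 CPM in cerebellum (median 155), a log2 fold change of -0.85 ± 0.18 (SE; adjusted p = 8.76e-05, edgeR). Atp5if1, the protein that blocks ATP hydrolysis by complex V, ranged from 96.7 to 190 CPM in striatum (median 119) and from 54.1 to 115 CPM in cerebellum (median 65.7), a log2 fold change of -0.77 ± 0.17 (SE; adjusted p = 8.67e-05, edgeR). Cox6a1, the subunit 6a isoform of most tissues, ranged from 460 to 932 CPM (median 497) and from 252 to 581 CPM (median 301), a log2 fold change of -0.75 ± 0.19. Ndufa8, an accessory subunit with twin cysteine motifs, ranged from 131 to 287 CPM (median 146) and from 70.0 to 169 CPM (median 92.2), a log2 fold change of -0.73 ± 0.20. For each of these 4 genes animal 1 had the highest cerebellar library, which reached into the striatal range, and the cerebellar library was the lower one in 4 of 5 animals. With every library the 4 fold changes lay between -0.35 and -0.20 and none passed the test, and cerebellar sham 48 was far above the rest (830 CPM of Uqcr11).

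The calls were also counted under other settings. Sample quality weights (limma-voom), with every library kept, called 6 members higher and 20 lower, with 37.8% and 34.2% of all genes called. The animal as a replicate block, without the libraries standing apart, called 12 higher and 13 lower, with 35.2% and 32.3% of all genes, and there 9 core members were called higher and 1 lower against 3 and 12 of the others. The same 6 higher members were in all 3 sets, and 13 lower ones were. Of the 18 members called lower without the libraries standing apart 14 had a promoter, and 8 of those held the ETS motif, 2 the NRF1 motif and 4 the YY1 motif. Of the 6 called higher 5 had a promoter, and 2, 0 and 1 of them held these motifs. The mean over the 4 exposure groups with every library called 57 members higher and 0 lower, where 40.8% and 30.8% of all genes were called. There the fold changes of Uqcr11, Atp5if1, Cox6a1 and Ndufa8 were above 0.

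**Figure D5:**
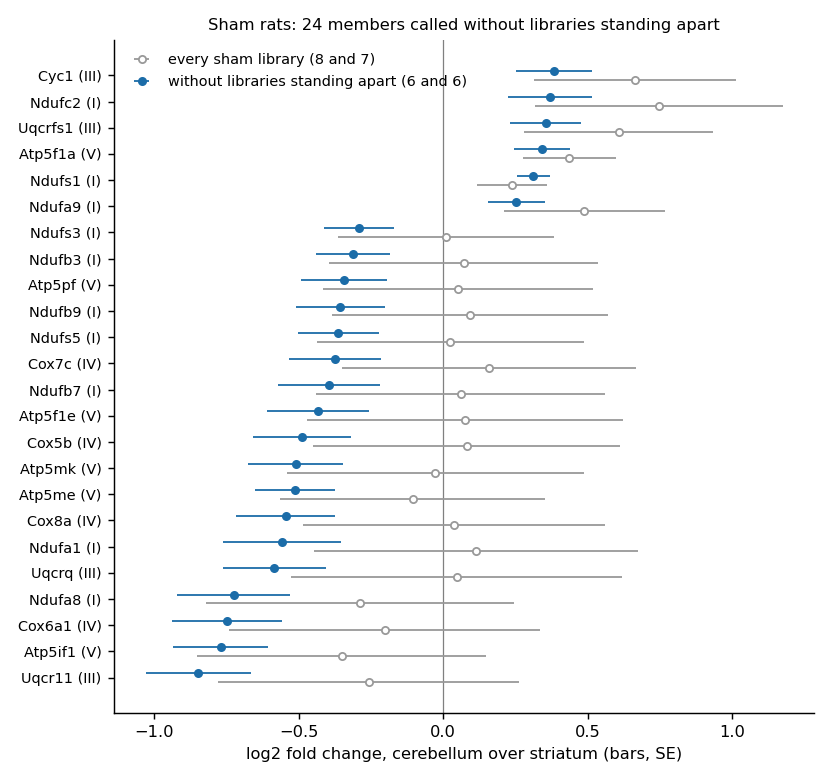
The 24 members called in sham without the libraries standing apart (y axis, complex in brackets) are placed by the log2 fold change of cerebellum over striatum (x axis), filled without those libraries and open with every library, with bars for SE. The 6 members on the right lie above 0 in both fits, and the filled points of the other 18 lie below 0.

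Without the animal as a replicate block, other central subunits passed the test between regions neither with every library nor without those standing apart. Without the libraries standing apart Ndufv1 had a log2 fold change of 0.16 ± 0.10, Sdha 0.03 ± 0.08, Sdhb 0.17 ± 0.12, Uqcrc1 0.19 ± 0.11 and Atp5f1b 0.09 ± 0.11. Cox5a, at -0.01 ± 0.15, and Ndufa4, at 0.08 ± 0.14, did not pass it either. With the block, and without the libraries standing apart, Sdhb was called higher in cerebellum at 0.28 ± 0.09 (SE; adjusted p = 0.00941, edgeR) and Uqcrc1 at 0.31 ± 0.08 (SE; adjusted p = 0.00293, edgeR), while Ndufv1, Sdha, Atp5f1b, Cox5a and Ndufa4, at 0.12 to 0.18, had adjusted p-values of 0.0751 to 0.314 (edgeR). Ndufv1, Sdha, Sdhb and Uqcrc1 were higher in cerebellum in 5 of these 5 animals, Atp5f1b in 4, Cox5a in 3 and Ndufa4 in 2. Ndufa4 is counted with complex I by its name but is now known as a subunit of complex IV.

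Several complex IV and V subunits exist as isoforms used in different tissues. In sham, Cox4i1, the common isoform of subunit 4, ranged from 401 to 1104 CPM in striatum and from 375 to 2014 CPM in cerebellum, and Cox4i2 from 1.44 to 5.94 CPM and from 3.04 to 9.74 CPM. Neither isoform was called between the regions in either fit. Cox6a2 and Cox8b, the heart and muscle isoforms, had 0 to 21 and 0 to 41 counted reads per striatal library and 0 to 75 and 0 to 23 per cerebellar library. Cox6b2, known from testis, ranged from 1.15 to 4.86 CPM in striatum and from 0.51 to 12.1 CPM in cerebellum, with the highest value in sham 48. It also had the smallest member p at low loading in cerebellum, at 0.26 to 3.06 CPM in the low libraries and a log2 fold change of -1.08 ± 0.67, which was 0.02 without sham 48. The 3 genes for the identical mature c subunit of the ATP synthase ring, Atp5mc1, Atp5mc2 and Atp5mc3, had log2 fold changes between regions of 0.10, 0.51 and 0.60 with every library and of -0.33, 0.06 and 0.20 without those standing apart, and none was called in either fit. With the animal as a replicate block and without those libraries Atp5mc3 was called, at 0.30 ± 0.10 (SE; adjusted p = 0.0142, edgeR). Annotated pseudogenes exist for 40 of the 78 members, 92 in all, and the counting tool is not stated, so the level of such a member may include or lose reads of its copies.

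Other genes of the pathway were followed by lists. Of 45 assembly factors tested, which build the complexes without staying in them, 0 were called in any comparison with sham. In cerebellum at high loading 40 of 45 were higher (median log2 fold change 0.64), and without the libraries standing apart 12 were, with a median of -0.12. The copper chaperone Cox17 had the smallest p, at 1.84 ± 0.66 (SE; adjusted p = 0.418, edgeR). Of the 20 enzymes of the tricarboxylic acid cycle, which feeds NADH and succinate to the chain, 10 were higher and 10 lower, with a median of -0.02. Of the 21 regulators of mitochondrial biogenesis tested 11 were higher, with a median of 0.11. Of the 13 subunits and carriers outside the naming rule 13 were higher, with a median of 0.41. With the libraries standing apart left out, 6 of the 20 cycle enzymes, 10 of the 21 regulators and 3 of the 13 subunits and carriers were higher, with medians of -0.06, -0.0047 and -0.13. None of these lists had a member called against sham.

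Between regions in sham each of these lists held calls, where 22.1% of all genes were called higher in cerebellum and 21% lower with every library, and 35.1% and 32.2% without those standing apart. Of the 45 assembly factors 4 were called higher and 4 lower with every library, and 9 and 12 without those standing apart. Pet100, an assembly factor of complex IV, was higher at 3.27 ± 0.49 (SE; adjusted p = 2.17e-07, edgeR), and Ttc19, which clears fragments from complex III, was lower at -0.91 ± 0.13 (SE; adjusted p = 1.11e-07, edgeR). Of the 20 tricarboxylic acid cycle enzymes 5 were called higher and 4 lower with every library, and 11 and 4 without those standing apart. Idh3g, a regulatory subunit of NAD-dependent isocitrate dehydrogenase, was higher at 1.23 ± 0.18. Of the 21 biogenesis regulators 7 were called higher and 2 lower, and 10 and 3 without those libraries, with Gabpb1, the beta subunit of GABP, higher at 0.62 ± 0.13 and Tfb1m, a mitochondrial ribosomal RNA methyltransferase, lower at -0.76 ± 0.14. Of the 13 subunits and carriers outside the rule 2 were called higher and 1 lower (Coq2, an enzyme of coenzyme Q synthesis, at -0.76 ± 0.22), and 2 and 2 without those libraries.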

How the data were processed

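RNA of tissue punches was sequenced after poly(A) capture or ribosomal RNA removal; the labels' protocols do not say which. HISAT2, FastQC and the rat build rn6 are listed, without their roles or versions, per the submitters' processing notes. How reads were counted (tool, strand, multi-mapping reads) is not given in the sources used here. The authors deposited raw read counts per gene, 1 table per region, and no gene had a total under 10. Gene IDs were matched to symbols of RefSeq's GRCr8 annotation (14163 of 14231 and 14063 of 14129 matched).

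Counts were tested with edgeR 4.0.16 (R 4.3.3; TMM, filterByExpr, quasi-likelihood test, Benjamini-Hochberg adjustment over all genes, threshold 0.05), all 4 exposure groups of a region in 1 fit, and both regions in 1 fit for region differences. The fits covered 12268, 11976 and 12633 genes. Level plots use log2 CPM with a prior count of 2. Alternatives were DESeq2 1.42.0 and limma 3.58.1 (voom), other filters and size factors, blocks, a ribosomal covariate and left-out libraries. The fits were tested on simulated counts, drawn independently for each gene with the same dispersion and without libraries standing apart. That cannot show how the tests behave with such libraries or with genes that move together. The pairing by animal number was looked at over 11679 genes. Deviations of an animal's 2 libraries from their group means had correlations of -0.284 to 0.85 (median 0.388), over 0.1 in 21 of 29 animals. For 6 of the 29 the striatal library correlated best with the cerebellar library of its own number. Deviations that libraries of different animals share were not taken out, so these values cannot show a link by animal. Leaving out the libraries standing apart and the animal block without them were chosen after seeing the data.

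Members and lists were chosen with earlier results of these data known. Named genes had the smallest p in a comparison (per complex for cerebellum at high loading), differed most between regions, or were core, regulatory or isoform genes. Levels were not compared between genes, since transcript lengths were not used here.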

Additional observations from a re-analysis of the deposited data

Results flagged for a closer look

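The cerebellar library of sham animal 48 lay far above the other 6 sham libraries. Its mean over all members was 8.71 log2 CPM, and the next highest sham library had 7.48. Its complex III mean was 8.55 against 7.42, its complex IV mean 8.73 against 7.18, and its complex V mean 9.36 against 8.15. Of 48 groups examined 4 had such a library, all of them this one, and chance gives about 1 in 20. The complex means are parts of the mean over all members, so these 4 are not independent. The rate does not apply to them together.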

How the results depend on the processing

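No setting gave a called member in any comparison with sham. In cerebellum at high loading the median of members was -0.11 with limma-voom quality weights, -0.29 without the libraries standing apart and -0.038 with the ribosomal mean as covariate, and 0.76 to 1.996 with each library left out. Under those 3 settings in that order, Atp5mk was at -0.22, -0.39 and -0.038 and Cox7a2 at -0.15, -0.33 and -0.0047. Under the first and second, Uqcr10 was at -0.16 and -0.33, Ndufa5 at -0.027 and -0.13, and Sdhb at -0.060 and -0.18. The ribosomal mean had a Pearson correlation of 0.997 with the member mean in cerebellum, so the covariate takes up a shift they share. DESeq2 called 55 members in the cerebellar trend. Between regions the number called was 26 with limma-voom, 2 with no filter, 2 with the animal as replicate block, 24 without the libraries standing apart, 25 with that block and without them, 0 with only the sham libraries, 57 as mean over 4 exposure groups, and 0 to 1 with each library left out. In that mean over groups Uqcr11 was at 0.029, Atp5if1 at 0.13, Cox6a1 at 0.22 and Ndufa8 at 0.29. With each library left out, Cox6b2 in cerebellum at low loading ranged from -1.39 to 0.025 (without sham 48), and Sdha between regions from -0.012 to 0.096, at -0.010 without cerebellar sham 1 and at -0.012 without sham 48. Apart from leaving libraries out, the cause of these shifts was not tested. Blocking for runs of 15 animal numbers, which the labels do not call a batch, left the cerebellar high median at 1.27. The within-group SD of the member mean, 0.42 in striatum and 1.01 in cerebellum, limits what shifts shared by the members could be told from 0.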
